A study of Mus musculus with 6 samples.

Results

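The annexins and their S100 partners are represented here by 10 genes, *Anxa1* to *Anxa6*, *S100a4*, *S100a6*, *S100a10* and *S100a11*, out of the 20632 genes listed by symbol in the deposited table of hind limb muscle RNA. The genes were taken by name as a family of membrane repair proteins, and the family was proposed because *Anxa1* and *Anxa2* were known to be lower in the mutant. *S100a10* also stood in a gene list that the study drew from the same mice. The difference between genotypes is therefore given for these 3 genes as a description without a p-value, and only the other 7 genes carry one. All 10 genes had enough counts to be tested, and their estimated counts were whole numbers in every mouse.

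Annexins are cytosolic proteins that bind phospholipids in the presence of calcium. When the sarcolemma of a muscle fiber is torn, the calcium that enters draws annexins to the edges of the wound, where they help to form a repair cap together with dysferlin and Trim72. Several annexins work in a complex with small S100 proteins, of which S100A10 pairs with annexin A2 and S100A11 with annexins A1 and A2. Many of these genes are also strongly expressed in macrophages, fibroblasts and endothelial cells, which lie between the fibers.

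RNA came from hind limb muscle as a whole (the labels list Q, SOL, GA, EDL and TA) in unexercised male mice on a C57BL/6 background aged 3 months, with 3 mice per genotype and 1 library per mouse. Both genotypes carried floxed *Baf155* alleles (*Baf155* f/f). Baf155 WT mice had no Cre, and in Baf155 ΔMF mice (*MCK*-Cre; *Baf155* f/f, labelled Baf155 -/-) the muscle creatine kinase promoter drives Cre in muscle fibers and also in the heart, so that other cells of the limb muscle keep the gene. *Smarcc1*, which encodes Baf155, had 23.4, 19.5 and 17.0 CPM in Baf155 WT mice and 7.05, 6.54 and 7.72 CPM in Baf155 ΔMF mice. CPM is the count scaled to the library total and corrected by TMM normalization, which assumes that most genes do not differ between libraries. Totals per mouse were between 8426022 and 12469335 counts. Sample titles begin with MS13 (Baf155 WT mouse MS13-3 and Baf155 ΔMF mice MS13-1 and MS13-2), MS14 (Baf155 ΔMF mouse MS14-2) or MS15 (Baf155 WT mice MS15-2 and MS15-3), and the labels do not say what the prefix stands for. Outside MS13, prefix and genotype cannot be told apart.

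The 4 S100 genes all lie on mouse chromosome 3. On the GENCODE M21 annotation of GRCm38, *S100a4* (90603771 to 90606045) and *S100a6* (90612882 to 90624181) are neighbors on the plus strand. *S100a11* (93520488 to 93526287) and *S100a10* (93555080 to 93564643) form another close pair on that strand. The annexins are scattered. *Anxa2* lies on chromosome 9 (69453620 to 69491795, plus strand) and *Anxa1* on chromosome 19 (20373428 to 20390944, minus strand). *Anxa3* lies on chromosome 5, *Anxa4* on 6, *Anxa5* on 3 and *Anxa6* on 11. *Anxa1*, *Anxa2* and *Anxa4* each overlap an annotated gene on the opposite strand, and whether reads were counted by strand is not given in the sources used here.

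The bases before the transcription start of *Anxa2* and *S100a11* are shown because these genes encode an annexin and an S100 protein that bind each other. Their estimated log2 fold changes were -0.43 (standard error 0.13) and -0.18 (standard error 0.21). Whether these estimates differ beyond their errors was not tested. The bases shown come from the windows of 250 bases before each gene's start in RefSeq (GRCm38.p6). They leave out the bases that GENCODE M21 places in a UTR, and are written 5′ to 3′. Capitals mark the AP-1 motif TGANTCA, searched on both strands.
*Anxa2* (chr9:69453433-69453619, plus strand): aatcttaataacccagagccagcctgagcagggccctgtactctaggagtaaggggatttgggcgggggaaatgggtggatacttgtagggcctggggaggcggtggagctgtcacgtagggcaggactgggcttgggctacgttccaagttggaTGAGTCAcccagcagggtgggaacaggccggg
*S100a11* (chr3:93520246-93520487, plus strand): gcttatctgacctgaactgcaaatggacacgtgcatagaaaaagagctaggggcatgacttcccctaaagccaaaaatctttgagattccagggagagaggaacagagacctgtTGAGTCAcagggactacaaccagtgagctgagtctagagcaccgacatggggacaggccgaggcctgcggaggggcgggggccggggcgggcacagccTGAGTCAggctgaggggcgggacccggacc
The AP-1 motif was found once before *Anxa2* and at 2 positions before *S100a11*, and 6.75% of the 32851 promoter windows in the table hold at least 1 match. The GC box GGGCGG, held by 32.7% of windows, was found at 3 positions in each of these windows, 2 of which are in the bases left out for *Anxa2*. The window of *Anxa1* held neither motif, and TATAAA ended 27 bases before its RefSeq start, against 12.4% of windows with a match. GENCODE M21 places all 250 bases of this *Anxa1* window in a UTR, so it may not be promoter sequence. TATAAA was also found before *Anxa2*, in the bases left out, and before *S100a4*. The hypoxia response cores ACGTG and GCGTG, held by 16.6% and 28.2% of windows, were found before *Anxa2*, *Anxa4*, *Anxa5* and *S100a11*. In the *Anxa5* window, GENCODE M21 places 205 of the 250 bases in a UTR. The STAT motif TTCNNNGAA, held by 7.02% of windows, was not matched in any of the 8 windows found for 7 of the 10 genes. The GC content of the window was 46% for *Anxa1*, 62.4% for *Anxa2* and 60% for *S100a11*, beside a median of 52.4% over all windows. These letter matches describe the sequence, and no binding was measured here.

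**Figure D1:**
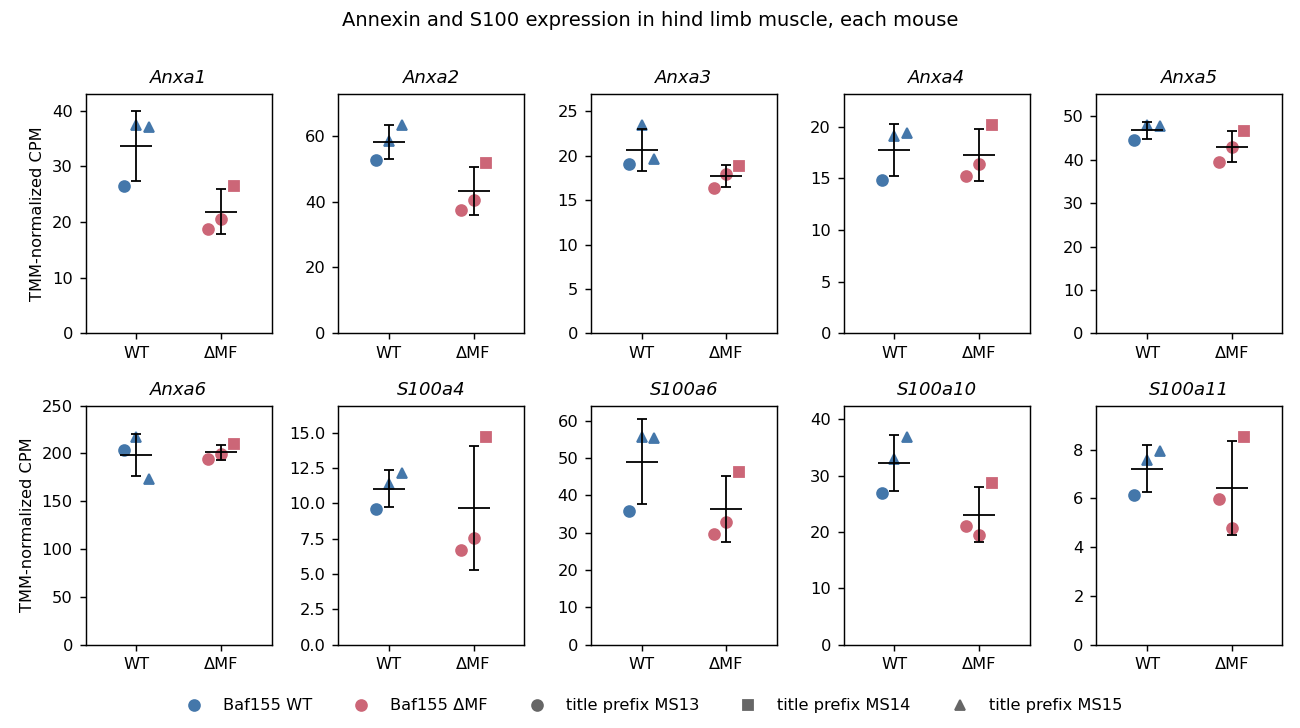
TMM-normalized CPM of the 10 genes in each mouse (y axes start at 0). Points are mice, colored by genotype and shaped by title prefix, and black bars are the mean ± SD of 3 mice. The MS14 mouse had the highest *S100a4*, *S100a11* and *Anxa4* values of the 6 mice.

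*Anxa2* and its partner *S100a10* had similarly lower means in Baf155 ΔMF muscle. The annexin A2 protein bundles actin at membranes and, bound to a dimer of S100A10, links membrane sheets. *Anxa2* had 52.7, 58.5 and 63.1 CPM in Baf155 WT mice MS13-3, MS15-2 and MS15-3, and 37.5, 40.5 and 51.6 CPM in Baf155 ΔMF mice MS13-1, MS13-2 and MS14-2. The groups did not overlap, although MS14-2 came close to the lowest Baf155 WT mouse. The means were 58.1 ± 5.22 and 43.2 ± 7.42 CPM (SD, n = 3), and the log2 fold change was -0.43 (SE, the standard error, 0.13), or 74.2% of the Baf155 WT level. *S100a10* had 26.9, 33.0 and 36.9 CPM in Baf155 WT mice and 21.0, 19.5 and 28.8 CPM in Baf155 ΔMF mice, in the same order of mice. Here MS14-2 lay above MS13-3, so the groups overlapped. For *S100a10* the log2 fold change was -0.49 (SE 0.16), or 71.3% of the Baf155 WT level. Between the MS13 mice alone the log2 differences were -0.43 for *Anxa2* and -0.41 for *S100a10*, close to the values over all mice.

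The balance of the pair hardly differed between genotypes. The log2 ratio of *S100a10* to *Anxa2* CPM was -0.97, -0.83 and -0.77 in Baf155 WT mice and -0.83, -1.05 and -0.84 in Baf155 ΔMF mice. The means of -0.86 ± 0.10 and -0.91 ± 0.12 differed by -0.05, less than the SD within either genotype. Both genes were lowest in MS13-1 and MS13-2 and highest in MS15-3. This is a description, since both genes were known to be lower.

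*Anxa1* had the most negative log2 fold change of the 10 genes, and its partner *S100a11* had a smaller estimate with a larger error. Whether these estimates differ beyond their errors was not tested, and *Anxa1* had been picked because it was known to be lower. Annexin A1 is an early responder to calcium at membrane wounds and, when secreted, acts as an anti-inflammatory signal. *Anxa1* had 26.4, 37.3 and 37.1 CPM in Baf155 WT mice and 18.7, 20.5 and 26.4 CPM in Baf155 ΔMF mice, in the order given for *Anxa2*. The MS15 mice stood well above the rest, and MS13-3 and MS14-2 met at the same rounded value, so that the groups were separated by only 0.00047 CPM. The log2 fold change was -0.63 (SE 0.16), or 64.7% of the Baf155 WT level, and it was -0.43 between the MS13 mice alone. *S100a11*, whose product joins annexins at the plasma membrane, had 6.12, 7.57 and 7.94 CPM in Baf155 WT mice and 5.98, 4.78 and 8.54 CPM in Baf155 ΔMF mice. The highest value of all belonged to the Baf155 ΔMF mouse MS14-2. These levels rest on 46 to 99 counts per mouse. The log2 fold change of *S100a11* was -0.18 (SE 0.21; by the edgeR quasi-likelihood test the Benjamini-Hochberg adjusted p = 0.818), with -0.42 without MS14-2 and 0.00083 without MS13-2.

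The ratio of *S100a11* to *Anxa1* had a higher mean in Baf155 ΔMF muscle. On the log2 scale it was -2.11, -2.30 and -2.22 in Baf155 WT mice and -1.64, -2.10 and -1.63 in Baf155 ΔMF mice, with a difference of means of 0.42. The groups were separated by a small margin only, because MS13-2 lay next to MS13-3. The ratio of *S100a11* to *Anxa2* overlapped between genotypes and differed by 0.24. No test was run on these ratios, because *Anxa1* and *Anxa2* were picked for this contrast.

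**Figure D2:**
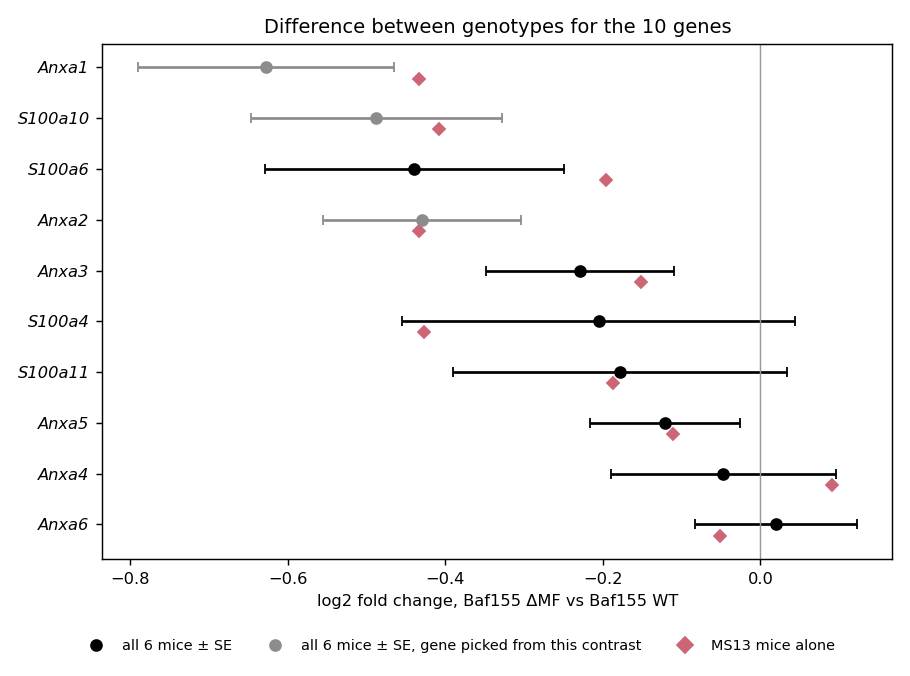
Log2 fold change of Baf155 ΔMF against Baf155 WT for each gene over all 6 mice (circles, ± 1 standard error) and between the MS13 mice alone (diamonds, 1 Baf155 WT and 2 Baf155 ΔMF mice). Values run from -0.63 for *Anxa1* to 0.02 for *Anxa6*, and gray circles are the 3 genes picked with this contrast known.

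*S100a6* and *S100a4* encode small calcium-binding proteins of fibroblasts and macrophages, among other cells, and S100A6 also binds annexin A2. *S100a6* had 35.9, 55.8 and 55.4 CPM in Baf155 WT mice and 29.8, 32.8 and 46.3 CPM in Baf155 ΔMF mice. Its MS13 mice lay close together whatever their genotype, with MS14-2 and the MS15 mice above them. The log2 fold change was -0.44 (SE 0.19, edgeR adjusted p = 0.611), and it was -0.20 between the MS13 mice alone. Without the Baf155 WT mouse MS13-3 its adjusted p was 0.0168, in a fit that called 955 genes, and over the alternatives with a test its adjusted p ranged from 0.0168 to 0.992.

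*S100a4* had 9.62, 11.4 and 12.1 CPM in Baf155 WT mice and 6.73, 7.58 and 14.7 CPM in Baf155 ΔMF mice. The MS13 Baf155 ΔMF mice were the lowest of the 6 and MS14-2 was the highest, so the Baf155 ΔMF range enclosed the Baf155 WT range. Its log2 fold change of -0.21 (SE 0.25, edgeR adjusted p = 0.822) became -0.63 without MS14-2 and 0.0013 without MS13-1. With a coefficient of variation of 45.4% over the Baf155 ΔMF mice, *S100a4* was the most variable of the 10 genes, against 11.7% in Baf155 WT mice.

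The other annexins of the family had smaller differences, and none passed the test. *Anxa3*, known for its expression in neutrophils and endothelial cells, had 19.0, 23.4 and 19.6 CPM in Baf155 WT mice and 16.3, 17.96 and 18.8 CPM in Baf155 ΔMF mice. These groups did not overlap, by a margin of 0.22 CPM. For *Anxa3* the log2 fold change was -0.23 (SE 0.12, edgeR adjusted p = 0.627). *Anxa5*, whose product assembles into a two-dimensional lattice at membrane wounds, had between 44.5 and 47.9 CPM in Baf155 WT mice and between 39.5 and 46.7 CPM in Baf155 ΔMF mice. Its log2 fold change was -0.12 (SE 0.10, edgeR adjusted p = 0.713).

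*Anxa4* and *Anxa6* had means close to those of the controls. *Anxa6* encodes the annexin with a duplicated core, a component of the repair cap and a modifier of muscular dystrophy in mice. It had 204, 217 and 174 CPM in Baf155 WT mice and 195, 199 and 210 CPM in Baf155 ΔMF mice, with a log2 fold change of 0.02 (SE 0.10, edgeR adjusted p = 0.961). All 3 Baf155 ΔMF mice lay within the range of the controls. *Anxa4*, which encodes a protein that curves membrane edges, had between 14.9 and 19.4 CPM in Baf155 WT mice and between 15.3 and 20.1 CPM in Baf155 ΔMF mice. Its log2 fold change was -0.05 (SE 0.14, edgeR adjusted p = 0.932). The sign of the *Anxa4* and *Anxa6* values changed when title prefix was a covariate and when some single mice were left out, and *Anxa6* also turned negative when only the library size was used for scaling.

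Over the family, 0 of the 7 genes that were not picked from this contrast had an adjusted p under 0.05 in edgeR, DESeq2 or limma-voom, where edgeR called 3 of the 12116 genes tested (0.0248%, with 0.0165% lower). At an unadjusted p under 0.05, 1 of the 7 was found by each tool, beside 7.95% of all genes in edgeR (4.6% lower). In edgeR this gene was *S100a6*. The log2 fold change was below 0 in 9 of the 10 genes, and in 6 of the 7, against 50.2% of all genes tested. Its median was -0.22 over the 10 genes and -0.18 over the 7, while the median over all genes was -0.00095. The median over the 10 genes was -0.50 when MS14-2 was left out. Groups without overlap and with Baf155 ΔMF lower were found for *Anxa1*, *Anxa2* and *Anxa3*, against 5.57% of all genes tested, and only *Anxa3* of these had not been picked.

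**Figure D3:**
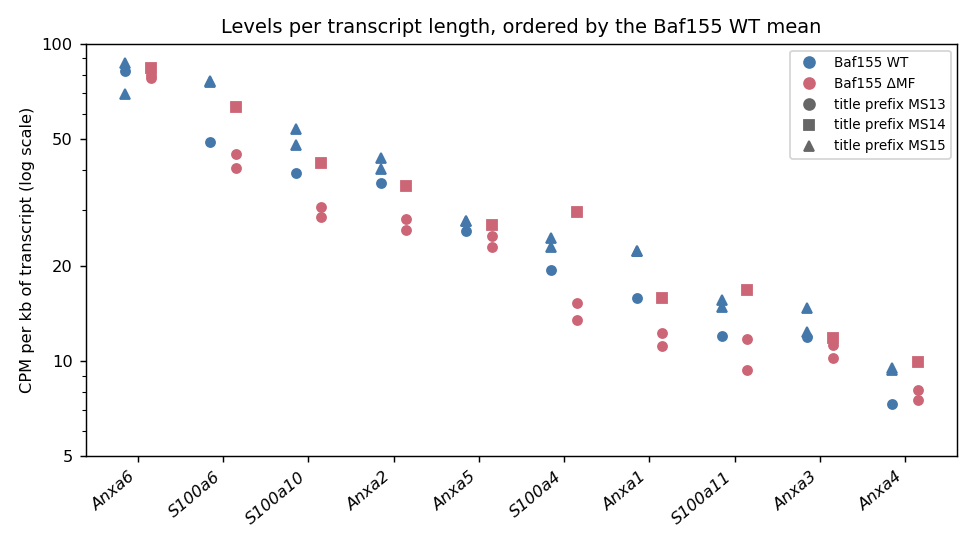
Level of each gene per kilobase of its principal transcript in each mouse (log axis), ordered by the mean of the 3 Baf155 WT mice. *Anxa6* stood at 79.7 and *Anxa4* at 8.75 CPM per kb, with the S100 genes between them.

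Levels of different genes were compared per kilobase of the longest principal transcript in GENCODE M21, and the order was read from the Baf155 WT mice alone. *Anxa6* was the most abundant, with 79.7 ± 9.03 CPM per kb (SD, n = 3). It was followed by *S100a6* (67.1 ± 15.6), *S100a10* (47.1 ± 7.37) and *Anxa2* (40.1 ± 3.61), and each neighbor in this order overlapped the next. The proteins S100A10 and annexin A2 bind each other in equal numbers, and the ranges of their mRNAs per kilobase overlapped across control mice. Within each control mouse, however, *S100a10* was above *Anxa2*. The values were 39.3 against 36.4 CPM per kb in MS13-3, 48.1 against 40.4 in MS15-2 and 53.9 against 43.6 in MS15-3. *Anxa5* came next with 27.0 ± 1.12 CPM per kb, apart from both of its neighbors. *S100a4* (22.2 ± 2.60) and *Anxa1* (20.1 ± 3.73) overlapped, as did *S100a11* (14.1 ± 1.88) and *Anxa3* (12.98 ± 1.49). *Anxa4* was the lowest, with 8.75 ± 1.24 CPM per kb, below every value of *Anxa3*.

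Levels of most of the 10 genes differed between title prefixes within a genotype. A single mouse stood for a prefix on 1 side of each such comparison, so prefix and mouse cannot be told apart there. Within the Baf155 WT genotype, the mean of the MS15 mice was above MS13-3 for every gene except *Anxa6*, from 1.08 times for *Anxa5* to 1.41 times for *Anxa1* and 1.55 times for *S100a6*. Within Baf155 ΔMF, MS14-2 was above the mean of the MS13 mice for all 10 genes, from 1.07 times for *Anxa6* to 2.06 times for *S100a4*. MS13-1 or MS13-2 was the lowest of the 6 mice in 8 of the genes. An MS15 mouse was the highest in 7 genes and MS14-2 in the other 3. Within MS13, the prefix that holds both genotypes, the log2 difference was below 0 for 9 of 10 genes with a median of -0.19. The median over tested genes with counts in all MS13 mice was 0.0033. The 9 genes include *Anxa1*, *Anxa2* and *S100a10*, which were picked with a contrast that holds the MS13 mice. A fit in which prefix entered as covariate takes the genotype difference from these mice, of which only 1 is Baf155 WT. There 0 of the 7 genes not picked from this contrast passed (edgeR adjusted p from 0.969 to 0.996), where 16 of the 12116 genes tested were called. At an unadjusted p under 0.05 this edgeR fit found 1 of the 7, beside 616 of the 12116 genes.

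Markers of some other cell types also differed between title prefixes, again with a single mouse on a side within each genotype. The summed level of 8 macrophage markers was 78.6 CPM in MS13-3 and 255 and 206 CPM in the MS15 mice, and it was 73.0, 71.2 and 130 CPM in MS13-1, MS13-2 and MS14-2. All 8 of these markers, among them the receptor gene *Csf1r* and the complement genes *C1qa*, *C1qb* and *C1qc*, had negative log2 fold changes with a median of -1.08, and 0 had an adjusted p under 0.05 in edgeR, DESeq2 or limma-voom (7, 2 and 4 at an unadjusted p under 0.05). Within MS13, the macrophage sum differed by -0.12 on the log2 scale. The sum of 8 markers of fibro-adipogenic progenitors, the matrix-forming cells of muscle, was between 2011 and 2412 CPM in Baf155 WT mice. It was 1966, 1771 and 2770 CPM in MS13-1, MS13-2 and MS14-2. Its peak in MS14-2 came from the collagen genes *Col1a1*, *Col1a2* and *Col3a1*, which had 375, 487 and 782 CPM in that mouse. The other 5 markers had negative log2 fold changes, with a median of -0.30 over all 8, and 0 had an adjusted p under 0.05 in edgeR, DESeq2 or limma-voom (3, 3 and 2 at an unadjusted p under 0.05). *Dcn*, the most abundant of these markers, had 836 CPM in MS14-2, between MS13-3 (744) and the MS15 mice (1161 and 1011). The adipocyte sum ranged from 40.2 to 82.9 CPM in Baf155 WT and from 34.3 to 49.8 CPM in Baf155 ΔMF mice.

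The endothelial sum ran the other way, with the MS15 mice lowest. It was 345 CPM in MS13-3 and 255 and 266 CPM in the MS15 mice, and 344, 356 and 338 CPM in MS13-1, MS13-2 and MS14-2. Within MS13, the endothelial sum differed by 0.02 on the log2 scale. Over all mice, 0 of the 7 endothelial markers had a negative log2 fold change, with a median of 0.29. An adjusted p under 0.05 was found for 0 of them in edgeR, DESeq2 or limma-voom (2, 2 and 4 at an unadjusted p under 0.05). The sum of 8 neutrophil markers was between 13.2 and 21.3 CPM in Baf155 WT and between 15.3 and 18.6 CPM in Baf155 ΔMF mice, with *Ly6g* at 0 counts in every mouse. Of these markers 2 could be tested, with log2 fold changes of 0.34 for *Cxcr2*, whose groups did not overlap, and -1.11 for *Mmp9* (both with an edgeR adjusted p = 0.601). The lymphocyte sum was at most 1.99 CPM. The myofibre sum, which checks the labelled tissue, was between 176830 and 214930 CPM in all mice. Smooth muscle markers ranged from 660 to 822 CPM in Baf155 WT and from 796 to 929 CPM in Baf155 ΔMF mice. Tendon cell markers ranged from 238 to 318 and from 198 to 294 CPM, and hemoglobin and *Alas2* together from 622 to 1227 and from 371 to 805 CPM. Within MS13, the log2 differences were 0.13 for smooth muscle markers, -0.15 for tendon cell markers and -0.83 for hemoglobin and *Alas2* together. Sums for muscle stem cells (34.2 to 36.3 and 33.9 to 37.5 CPM) and Schwann cells (27.5 to 41.1 and 28.4 to 42.7 CPM) covered similar ranges in both genotypes. The part that these cells have in the annexin and S100 values was not tested. In bulk muscle, fewer cells of a type and less RNA per cell cannot be told apart.

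**Figure D4:**
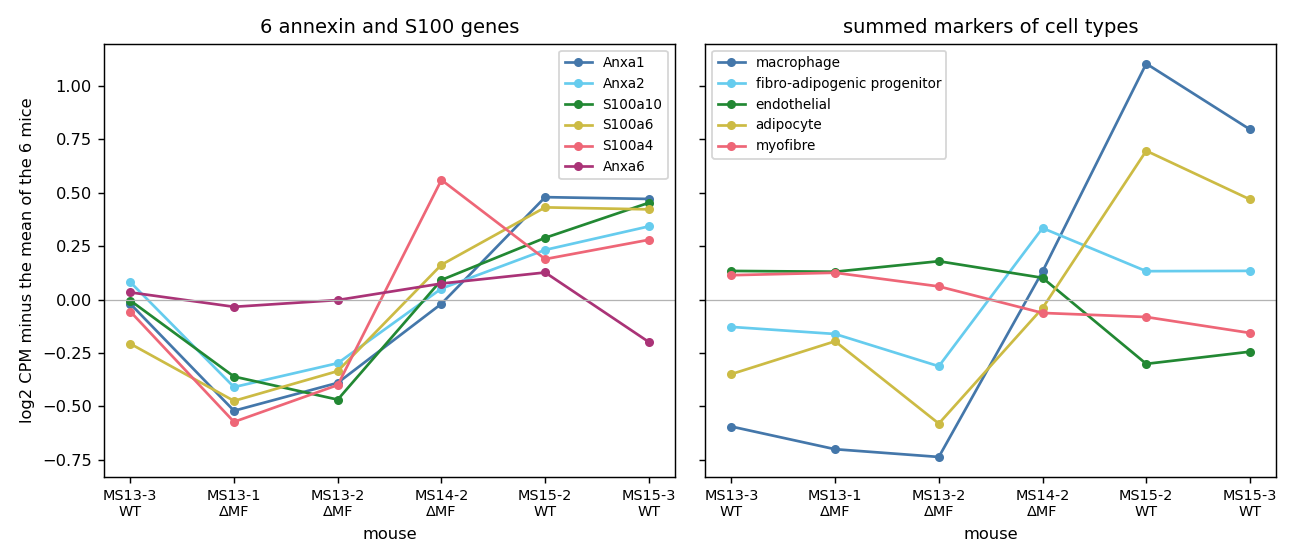
Log2 CPM minus the mean of the 6 mice for 6 of the genes (left) and for the summed markers of 5 cell types (right), with mice ordered by title prefix. MS13-1 and MS13-2 lie below 0 for *Anxa1*, *Anxa2*, *S100a10*, *S100a6* and *S100a4*. MS13-3 also lies below 0 for these genes except *Anxa2*, most clearly for *S100a6*. The macrophage sum separates all 3 MS13 mice from the MS15 mice.

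Few of the remaining annexins and S100 genes were expressed at a level that could be tested. Of 6 further annexins, 3 had enough counts to be tested, and 0 had an adjusted or an unadjusted p under 0.05 in edgeR, DESeq2 or limma-voom (median log2 fold change 0.08). *Anxa7*, a widely expressed annexin that can act in membrane fusion, had means of 98.8 ± 3.60 in controls and 104 ± 5.23 CPM in mutants, which is 0.08 on the log2 scale (edgeR adjusted p = 0.789). *Anxa8* was at only 2.57 ± 0.668 and 1.66 ± 0.695 CPM, with a log2 fold change of -0.64 (SE 0.33, edgeR adjusted p = 0.627). Of 11 further S100 genes, 4 were tested and again 0 had an adjusted or an unadjusted p under 0.05 with any of these tools (median -0.06). *S100a1*, the S100 gene of striated muscle fibers that modulates calcium release, had 101 ± 10.4 and 97.0 ± 13.8 CPM and a log2 fold change of -0.06 (edgeR adjusted p = 0.900). *S100a13* had the most negative value of these, with -0.30 (edgeR adjusted p = 0.703).

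Other genes of sarcolemma repair were read from a list of 25, of which 23 were tested. In edgeR 0 had an adjusted p under 0.05 in either direction. At an unadjusted p under 0.05 there were 2 (*Dysf* and *Ehd2*), beside 7.95% of all genes tested. The median log2 fold change was -0.04, with 16 of 23 below 0, against 50.2% of all genes tested. The furthest from 0 was *Dysf*, which encodes dysferlin, the membrane protein whose loss causes a muscular dystrophy with defective repair and which binds annexins A1 and A2. *Dysf* had 67.9, 62.6 and 52.8 CPM in Baf155 WT mice and 100.2, 92.2 and 99.98 CPM in Baf155 ΔMF mice, in the order given for *Anxa2*. All Baf155 ΔMF mice lay above all Baf155 WT mice, in the direction opposite to *Anxa1* and *Anxa2*. In the same list, *Pdcd6* and *Smpd1* had groups without overlap and with Baf155 ΔMF lower. Of all genes tested, 10.8% had groups without overlap in either direction. The log2 fold change of *Dysf* was 0.67 (SE 0.10, edgeR adjusted p = 0.0785). The call of *Dysf* depended on the tool, the filter and 1 mouse: the adjusted p was 0.000177 in DESeq2, 0.0989 in limma-voom, 0.0156 with a filter of at least 1 count in all and 0.000626 without MS13-3, and over all alternatives it ranged from 0.000177 to 0.416. The log2 fold change stayed between 0.50 and 0.76 in these fits. *Ahnak*, which encodes a very large scaffold protein anchored by the complex of annexin A2 and S100A10, had 1985 ± 63.0 and 1925 ± 48.1 CPM, a log2 fold change of -0.04 (edgeR adjusted p = 0.906).

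The genes whose levels over the 6 mice were most like those of *Anxa2* and *Anxa1* were found by the root mean square difference between centered log2 CPM profiles. Nearest to *Anxa2* were *Mfap5*, which encodes a microfibril protein of the matrix (0.0382), the tubulin gene *Tuba1a* (0.043), *Golga7b* (0.0533), *Nupr1* (0.0606) and *Prr5* (0.0629), where the median over all genes was 0.31. Nearest to *Anxa1* were *Cytip* (0.0755), *Ucp2* (0.0764), *Tuba1b* (0.0805), *Prkcb* (0.087) and *Medag* (0.0877), with a median of 0.406 over all genes. Among the family, *S100a10* was the nearest to *Anxa2*, at rank 22 of all genes (0.0953). *S100a6*, *S100a10* and *Anxa2* stood at ranks 22, 24 and 54 for *Anxa1*, and *S100a11* at rank 1024. *Anxa6* was the furthest of the family from both. These distances include the difference between genotypes and are given as a description.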

How the data were processed

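Hind limb muscle RNA of 3 Baf155 WT and 3 Baf155 ΔMF mice was sequenced from stranded total RNA libraries. Per the labels and the values, the authors deposited expected counts from RSEM (reads estimated for each gene, not normalized). The submitters' processing notes name CASAVA 1.8.2, cutadapt 1.10, Bowtie2 2.2.7, TopHat2 2.1.1, RSEM 1.2.30 and limma, and the builds mm10 and GRCm38. The gene annotation is not given in the sources used here. Groups follow the genotype label, and p-values measure the spread between mice.

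The expected counts, rounded to integers, entered edgeR 4.0.16 under R 4.3.3 (filterByExpr with a minimum count of 10 and a minimum total of 15, TMM, quasi-likelihood F test, genotype alone). Benjamini-Hochberg adjustment covered all 12116 genes that passed the filter. Alternatives were RLE and library size scaling, a filter of at least 1 count in all, DESeq2 1.42.0, limma 3.58.1 with voom, the title prefix as a covariate, each mouse left out in turn, and the MS13 mice alone. Profiles were compared on log2 CPM (prior count 2). The fit was tested on simulated data with 200 genes changed 2-fold, of which it recovered 176, with 6 false calls. This simulation gave all genes the same spread between mice and held no prefix effect. Differences as small as those of the 10 genes were not simulated. The floor of 3 counts was 0.229 to 0.351 CPM per mouse and covers counting error only.

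The members, gene lists and tests were chosen with earlier results of these data known. Named genes are the members, *Smarcc1*, the most abundant and the most changed gene of the further annexins, further S100 genes and repair genes, and the 5 genes nearest in profile to *Anxa1* and to *Anxa2*. The same rule held for cell type markers, which are given as sums instead. Examples of macrophage markers, the collagen genes, *Ly6g*, *Ehd2*, *Pdcd6*, *Smpd1*, and further genes given for their rank were named after their values were seen. The column of row totals was not used.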

Additional observations from a re-analysis of the deposited data

How the results depend on the processing

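Genes called at an adjusted p of 0.05 numbered 3 in the reported fit, 17 after a filter of at least 1 count in all, 22 in DESeq2, 5 in limma-voom and 16 when title prefix entered as covariate. It was 3 with RLE and with library size scaling. Across the fits that left out 1 mouse it ranged from 0 to 955. In the fits with 0 genes by edgeR, without MS15-2 and without MS13-2, 451 and 568 genes had an unadjusted p under 0.05. The number of the 7 annexin and S100 genes called was 0 in all these fits except without MS13-3, where it was 1 (*S100a6*). The median log2 fold change of the 10 genes ranged from -0.50 to -0.15 with 1 mouse left out, where -0.50 was the value without MS14-2. This median kept its sign in every alternative, but the 10 genes include those picked with this contrast known.

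The log2 fold changes of *Anxa1*, *Anxa2*, *Anxa3*, *Anxa5*, *S100a6* and *S100a10* kept their sign in all 13 alternatives. Of these, *Anxa1*, *Anxa2* and *S100a10* had been picked with this contrast known, and the alternatives reuse the same mice. Their kept sign is therefore a description only. *Anxa4* was 0.092 with title prefix as covariate and 0.091 between the MS13 mice alone. *Anxa6* was -0.052 in both and -0.041 with library size scaling. With 1 mouse left out, *Anxa4* ranged from -0.17 to 0.035, *Anxa6* from -0.068 to 0.095, *S100a4* from -0.63 to 0.0013 and *S100a11* from -0.42 to 0.00083. The cause of these moves was not tested. At 3 mice per genotype an exact permutation test of 1 gene cannot go below p = 0.10. No paired analysis was possible because the last numbers in the mouse titles, which are the only ones the labels give, are shared by the genotypes for 1 number only, and replicate numbers given in accession order pair no mice. The title prefix was used as a covariate instead.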
